A study of Mus musculus with 6 samples.

Results

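The intervals described here were more accessible in every library of mouse neural progenitors overexpressing Nr6a1 than in any mScarlet control library. They were chosen from the counts themselves, on chromosomes 1 to 19, by 3 criteria. The mean Nr6a1OE count was at least 40 fragments, every Nr6a1OE library exceeded every mScarlet library in CPM (the count per 1000000 of the library's fragments in intervals), and the log2 ratio of the group means was at least 0.4. Of 52223 intervals in all, 51110 lay on these chromosomes and 30288 reached the count minimum. The groups did not overlap, with Nr6a1OE higher, in 2781 of these (9.18%), and 404 (1.33%) met every criterion. The same criteria with the groups exchanged gave 669 intervals. Because the ratios, the separation of the groups and the minimum strength chose the 404 intervals, those values are given as a description.

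The assay was ATAC-seq, in which the Tn5 transposase cuts accessible DNA and attaches sequencing adapters. Both groups, of 3 libraries each, were neural progenitors differentiated from mouse embryonic stem cells in N2B27 medium with bFGF, and all 6 received the same factors: 5 µM CHIR99021 (a GSK3 inhibitor) on day 2, 100 nM retinoic acid with 10 nM of the Smoothened agonist SAG from day 3, and 10 nM SAG from day 5. On day 5 the mScarlet group was given a lentivirus carrying the red fluorescent protein mScarlet3, and the Nr6a1OE group one carrying Nr6a1 joined to mScarlet3 through a 2A peptide. On day 9 the cells were sorted for mScarlet3 fluorescence and 50000 were used per library, so cells with little or no virus were removed from both groups. Whether the 3 libraries of a group are separate cultures is not stated in the labels, and their spread may be technical. Depth was 6857763 to 8030029 fragments in intervals. Intervals spanned the start site of 8 of 9 neural progenitor markers, at 51.4 to 133 CPM in mScarlet, and of 1 of 4 pluripotency markers (Esrrb, 23.1 CPM). They also spanned 3 of 4 neuron markers (45.4 to 86.1 CPM), 2 of 3 blood and endothelium markers (40.7 and 42.0 CPM), 1 of 3 endoderm markers (44.0 CPM) and 1 of 4 mesoderm markers (14.6 CPM), so open start sites were not particular to progenitor markers. None of these marker start sites lay under one of the 404 intervals. In bulk libraries, more open cells and a more open site in each cell cannot be told apart.

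Nr6a1 (germ cell nuclear factor, GCNF) belongs to the orphan nuclear receptors, binds DNA, and is best known for silencing pluripotency genes such as Pou5f1 as embryonic stem cells differentiate. It also acts in the axial patterning of the embryo. Accessible sites away from genes are often enhancers, and those close to transcription start sites are mostly promoters, which tend to be the most open sites of a cell. In the hedgehog pathway, Boc, Cdon and Gas1 bind the ligand at the cell surface, Smoothened carries the signal, and the Gli proteins act on target genes in the ventral neural tube.

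Of the 404 intervals, 14 (3.47%) spanned a RefSeq start site, against 32.2% of the intervals at the count minimum. The shares were not matched for strength, and start sites are mostly strong. All 14 lay under 15 CPM, where 884 others of the 9745 start-site intervals at the minimum lay. How far weak signal accounts for the difference was not tested. The 250 bases before the start are shown for the 4 of the 14 with the highest ratios, as examples of promoters that met the criteria. Sequences are from RefSeq, GRCm38.p6, 5′ to 3′ along the strand of the gene, and capitals mark the GC box GGGCGG or its reverse complement. Ifitm1 (chr7:140967826-140968075, plus strand) encodes an interferon-induced membrane protein, Gpx3 (chr11:54902604-54902853, plus) a secreted glutathione peroxidase, Zfp641 (chr15:98296162-98296411, minus) a zinc finger protein and Nxph2 (chr2:23320996-23321245, plus) a neurexophilin.
Ifitm1: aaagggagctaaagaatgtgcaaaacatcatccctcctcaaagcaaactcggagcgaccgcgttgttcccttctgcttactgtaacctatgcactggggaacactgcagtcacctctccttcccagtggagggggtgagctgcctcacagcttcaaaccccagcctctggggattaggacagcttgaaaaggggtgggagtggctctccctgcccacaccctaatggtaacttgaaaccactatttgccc
Gpx3: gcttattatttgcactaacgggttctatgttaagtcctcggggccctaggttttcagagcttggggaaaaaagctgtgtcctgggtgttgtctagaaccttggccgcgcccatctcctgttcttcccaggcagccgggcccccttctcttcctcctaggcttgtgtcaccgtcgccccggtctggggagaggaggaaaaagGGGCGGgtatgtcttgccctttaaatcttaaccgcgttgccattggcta
Zfp641: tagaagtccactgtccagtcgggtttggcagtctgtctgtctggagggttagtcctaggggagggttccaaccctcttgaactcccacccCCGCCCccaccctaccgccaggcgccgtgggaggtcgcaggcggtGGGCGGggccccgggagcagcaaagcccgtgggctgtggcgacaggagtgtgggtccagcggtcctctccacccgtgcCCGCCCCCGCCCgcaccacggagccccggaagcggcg
Nxph2: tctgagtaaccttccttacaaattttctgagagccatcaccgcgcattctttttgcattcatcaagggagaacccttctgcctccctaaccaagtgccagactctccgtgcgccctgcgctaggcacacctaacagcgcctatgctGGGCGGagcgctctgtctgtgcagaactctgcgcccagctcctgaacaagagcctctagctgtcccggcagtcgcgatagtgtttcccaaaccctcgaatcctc

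The GC box was present in 7 of the 14 windows (50.0%), 65.4% of the 9745 windows spanned by an interval at the count minimum, and 42.6% of 21263 windows in all. Matches were sought on both strands. The nuclear receptor motif TCAAGGTCA was in 0 of the 14 windows and in 0.205% of the 9745, and the direct repeat of AGGTCA with no spacer was in 0 of the 14 and 0 of the 9745. The AP-1 motif TGANTCA, the homeodomain motif TAATTA and the E-box CAGCTG each occurred in 1 window of the 14, and in 3.44%, 1.90% and 11.6% of the 9745. The SOX motif ACAATGG and the TEAD motif GGAATG were in 0 of the 14, and in 1.35% and 9.87% of the 9745. With 14 windows, such counts do not set these promoters apart. Median GC content of the 14 windows was 55.4%, below the 61.6% of all spanned windows and near the 56.8% of 884 spanned windows from other intervals under 15 CPM. The Gpx3 interval held 5.31, 4.37 and 4.36 CPM in mScarlet 1, 2 and 3, against 7.25, 6.94 and 6.56 CPM in the Nr6a1OE libraries in the same order, a log2 ratio of 0.56. The Ifitm1 interval held 4.22, 3.65 and 3.61 CPM in mScarlet and 4.98, 7.23 and 5.55 CPM in Nr6a1OE (log2 ratio 0.63). Both promoters were weakly open in every library, and the Ifitm1 interval no longer met the criteria without Nr6a1OE 2.

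The chosen intervals were weak ones. Their mScarlet level had a median of 5.35 CPM (quartiles 4.30 and 7.33, range 2.91 to 25.4), against a median of 18.1 CPM over all 30288 intervals at the count minimum. In mScarlet 361 of the 404 lay under 10 CPM and 6 over 20 CPM. The count minimum was set on Nr6a1OE alone, so 205 of them had a mean mScarlet count under 40, a level at which an interval could enter only through a higher Nr6a1OE count. Their Nr6a1OE level had a median of 7.51 CPM, and the mean Nr6a1OE count behind it was 55 fragments (median, range 40 to 256.3), with 45 intervals at 100 or more. Replicates were less precise there, with a median coefficient of variation of 11.5% in mScarlet and 9.78% in Nr6a1OE, against 6.85% and 6.66% over all 30288. Over ranges of mean CPM over all 6 libraries, which includes the Nr6a1OE values used in the choice, the share meeting the criteria fell with strength: 248 of 5432 intervals under 7.5 CPM (4.57%), 135 of 8175 from 7.5 to 15 CPM (1.65%), 20 of 5419 from 15 to 30 CPM (0.369%) and 1 of 11262 above 30 CPM (0.00888%). The spread of log2 ratios narrowed alongside, the 95th percentile of all intervals being 0.43, 0.31, 0.23 and 0.12 in the same 4 ranges.

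**Figure D1:**
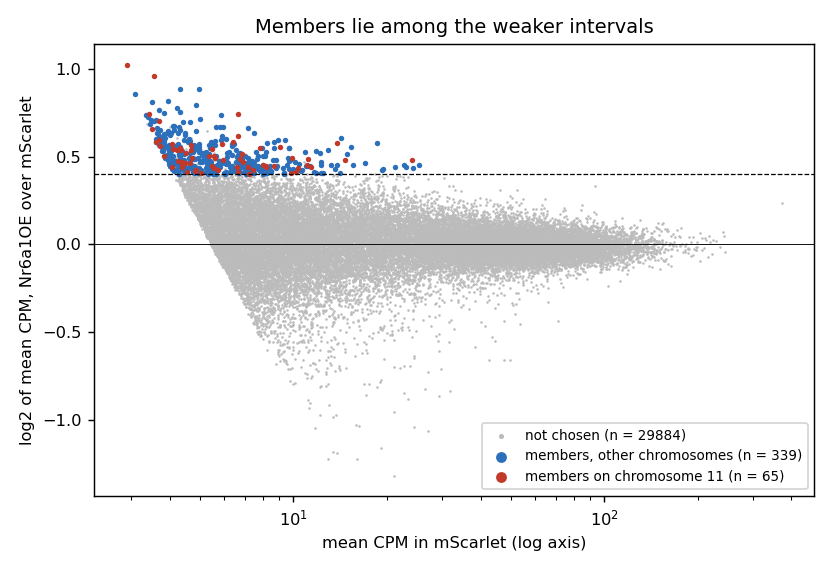
Log2 ratio of Nr6a1OE over mScarlet against mean mScarlet CPM (log axis), 1 point per interval, with the 404 intervals that met the criteria set apart from the others at the count minimum. The chosen intervals lie mostly below 10 CPM, and their slanted lower left edge is the count minimum.

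Ratios were modest. The median log2 ratio of the 404 was 0.48 (quartiles 0.44 and 0.55), 70 reached 1.5-fold and 1 reached 2-fold. The lowest Nr6a1OE library exceeded the highest mScarlet library by a median of 1.14-fold and by at most 1.65-fold. Just inside the log2 threshold were intervals nearest Prkca, Lhx4 and Cenpm (all 0.40 when rounded), and just outside it those nearest Gadd45g, Rhou and Prdm16 (also 0.40), so no gap separates the chosen intervals from the next. Summed over the 404, the mScarlet libraries gave 2575, 2660 and 2626 CPM and the Nr6a1OE libraries 3649, 3779 and 3660 CPM. As the criteria require, every Nr6a1OE library was higher in each interval. Nr6a1OE 1, 2 and 3 were the highest of their group in 124, 156 and 124 intervals, and mScarlet 1, 2 and 3 the lowest in 144, 121 and 139.

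The highest ratio was inside Fam222b on chromosome 11 (chr11:78153161-78154347). This interval held 3.13, 3.35 and 2.24 CPM in the mScarlet libraries and 5.54, 6.66 and 5.55 CPM in the Nr6a1OE libraries, a log2 ratio of 1.03. The groups stood well apart, but at levels among the lowest of the chosen intervals. At chr11:61701218-61702186, nearest Fam83g, the values were 2.86, 4.81 and 2.99 CPM in mScarlet and 7.11, 6.52 and 7.07 CPM in Nr6a1OE (log2 ratio 0.96). Next came an interval at Arl15, which encodes a small GTPase (chr13:113980844-113982026), with 4.63, 5.10 and 5.23 CPM in mScarlet and 10.7, 8.79 and 8.20 CPM in Nr6a1OE (log2 ratio 0.89). It met the criteria whichever single library was left out. Arl15 was the nearest gene of 3 of the 404 intervals, as was Tenm2, a teneurin adhesion gene. The second Arl15 interval (chr13:113879722-113881155) went from a mean of 7.66 to 10.7 CPM, and the last (chr13:114051285-114053270), one of the 5 strongest of all, from 22.6 ± 0.916 to 31.0 ± 2.68 CPM (SD, n = 3 each). The 3 Tenm2 intervals had log2 ratios of 0.44, 0.42 and 0.43. In all, 387 nearest genes were represented, 15 of them more than once.

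Across all 51637 intervals tested with edgeR's quasi-likelihood test (Benjamini-Hochberg adjusted p under 0.05), 242 were higher in Nr6a1OE (0.469%). Of the 404, 108 were among them, and since the criteria used the same libraries this overlap is no independent support. Of the other 134, 89 fell short of the log2 threshold, 33 of the count minimum and 3 had overlapping groups, and 9 lay on chromosome X or Y. DESeq2 called 4 of 52223 intervals higher (0.00766%), against 833 at unadjusted p under 0.05, and all 4 were among the 404. They lay nearest Cdon, Gsdmc, Meis1 and Enc1, were intergenic, and met the criteria without any 1 library. The Meis1 interval (chr11:19350609-19352560), 331.0 kb from that homeodomain gene, held 23.1, 22.9 and 26.3 CPM in mScarlet and 33.8, 33.3 and 33.8 CPM in Nr6a1OE (log2 ratio 0.48). Its Nr6a1OE libraries were almost equal, and all lay above the mScarlet libraries. The Enc1 interval (chr13:97310638-97312534) was the strongest of the 404 and held 24.9, 23.8 and 27.6 CPM in mScarlet and 31.7, 36.3 and 36.6 CPM in Nr6a1OE (log2 ratio 0.45). The Gsdmc interval (chr15:63052363-63053675) held 18.2, 17.2 and 20.2 CPM against 27.1, 30.9 and 25.0 CPM (log2 ratio 0.58), but lay 722.3 kb from the gene, so the name gives its place and little more.

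**Figure D2:**
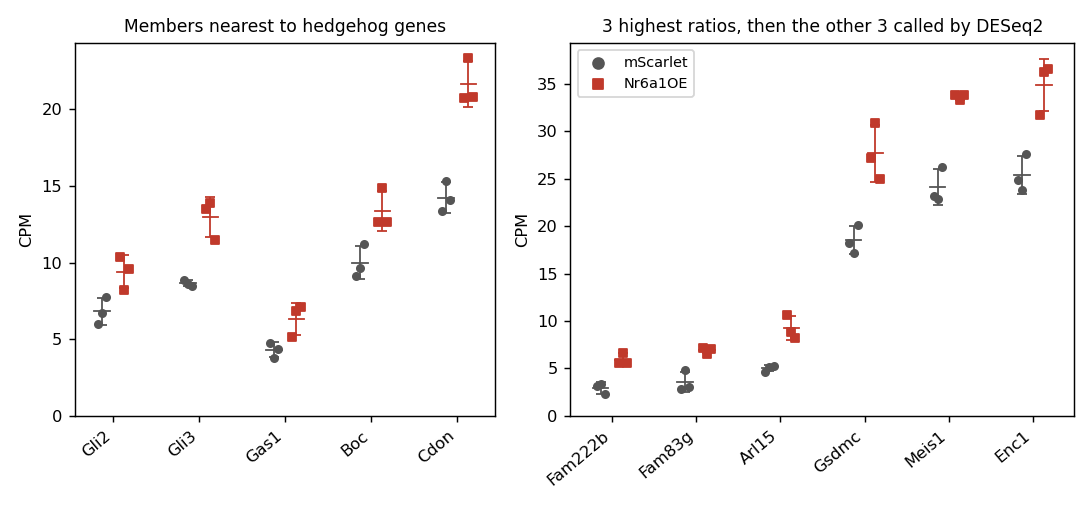
CPM in each of the 3 mScarlet and 3 Nr6a1OE libraries at intervals named in the text: 5 nearest hedgehog genes, the 3 highest ratios and the other 3 called by DESeq2. Points are libraries and horizontal bars group means, and the groups do not overlap in any panel, as the criteria require.

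Among the better measured intervals, with a mean Nr6a1OE count of at least 100, the 10 highest log2 ratios ran from 0.53 to 0.60. Irx3, a homeodomain gene of neural progenitors, had such an interval 165.2 kb away (chr8:91966901-91968056), which went from 13.0 ± 0.975 to 18.8 ± 1.57 CPM (SD, n = 3 each). One inside Irs1, which encodes an insulin receptor substrate, went from 9.69 ± 0.871 to 14.2 ± 0.421 CPM. In Bmf, a proapoptotic BCL2-family gene, an interval within 1 kb of the gene end (chr2:118529214-118530286) went from 15.4 ± 1.23 to 22.6 ± 2.11 CPM. Wscd1 was nearest to an intergenic one on chromosome 11, 251.0 kb away, which went from 13.8 ± 1.47 to 20.6 ± 2.79 CPM. The rest lay nearest Cdon, Hnrnpa3, Gsdmc, Ust, Pitpnm2 and Agtr1a. Hnrnpa3 and Hnrnpa2b1, which encode related RNA-binding proteins, each had a chosen interval within 1 kb of a gene end, with log2 ratios of 0.59 and 0.44. Within 1 kb of a gene end the highest ratios were at Taf4 (0.65), Ifitm1, Hnrnpa3, Lax1 (0.59) and Vwa5a (0.59).

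Of 53 intervals near 12 hedgehog pathway genes, 5 met the criteria (9.43%), against 336 of the 27295 intervals within 100 kb of any gene (1.23%). The list's median log2 ratio over its 53 intervals was 0.02, against 0.01 over the 27295, and the lists were chosen with earlier results known, so the count is a description of 5 sites. Upstream in the pathway were the coreceptors. Cdon's interval (chr9:35372054-35373063, 48.5 kb away) held 13.3, 15.3 and 14.1 CPM in mScarlet and 20.8, 23.4 and 20.8 CPM in Nr6a1OE, a log2 ratio of 0.60. That of Gas1 (chr13:60122978-60124292, 50.1 kb) held 4.76, 3.79 and 4.36 CPM against 5.12, 6.80 and 7.07 CPM (0.56). The Cdon groups were far apart, whereas Nr6a1OE 1 at Gas1 was barely above the highest mScarlet library. Boc's interval (chr16:44629516-44630678, 70.6 kb) held 9.12, 9.62 and 11.2 CPM against 12.7, 14.9 and 12.6 CPM (0.42). Downstream, the Gli3 interval lay inside the gene (chr13:15485832-15487771) and held 8.85, 8.60 and 8.47 CPM against 13.5, 13.9 and 11.5 CPM (0.58). That of Gli2 (chr1:118776578-118777314, 56.7 kb) held 5.99, 6.71 and 7.72 CPM against 10.4, 8.22 and 9.59 CPM (0.47). Nr6a1OE 2 at Gli2 was close to mScarlet 3, and the Gli3 groups were well apart.

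At each of these hedgehog genes a single interval met the criteria. Those of Cdon and Gli3 were the only 2 of the list's 53 intervals that edgeR called higher, so those of Gas1, Boc and Gli2 were not called. Cdon, Gli3 and Gas1 kept theirs without any 1 library. Gli2 lost its interval without mScarlet 1 or Nr6a1OE 1, and Boc without mScarlet 1, mScarlet 2 or Nr6a1OE 2, so the number ranged from 3 (without mScarlet 1) to 6. Median log2 ratios over all intervals of a gene were -0.04 for Boc (3 intervals), -0.01 for Gli2 (9), 0.01 for Gli3 (6), 0.05 for Cdon (4) and 0.14 for Gas1 (7). All 7 Gas1 intervals were higher in Nr6a1OE, with ratios of 0.08 to 0.56. Boc, Gli2, Gli3 and Cdon each also had intervals below 0. At start sites the strong interval of Gli2 went from 79.0 ± 4.13 to 84.3 ± 2.29 CPM, a log2 ratio of 0.09, and those of Gli3 and Gas1 had ratios of 0.03 and 0.09. The ligand receptor Ptch1, itself a target of the pathway, had 9 intervals with a median of -0.03 and a highest ratio of 0.20, and none of them was chosen. Gli1 had 2 intervals, both higher in Nr6a1OE, with ratios of 0.12 and 0.15, and neither was chosen.

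In the other lists, counts were small, beside the 1.23% of all intervals near genes. Cell cycle genes had 3 of 47 intervals (6.38%), nearest E2f3 (0.69), Ccnd2 (0.44) and the inhibitor gene Cdkn1c (0.42). The Notch, Wnt, BMP and FGF list had 4 of 118 (3.39%): Bmp7 (0.64), Wnt5a (0.62), Dusp6 (0.46) and Fgfr2 (0.42). The Wnt5a interval, inside this noncanonical Wnt ligand gene (chr14:28515470-28516065), held 5.17, 6.42 and 6.10 CPM in mScarlet and 8.39, 9.21 and 9.59 CPM in Nr6a1OE. Every Nr6a1OE value there was clear of the mScarlet values. Hox genes had 2 of 103 (1.94%), Hoxc13 (0.46) and Hoxc8 (0.41). The Hoxc8 interval (chr15:102990467-102991471) held 14.2, 14.0 and 14.3 CPM against 17.1, 19.3 and 19.9 CPM, but fell below the log2 threshold without mScarlet 2, Nr6a1OE 2 or Nr6a1OE 3. Dorsoventral patterning genes had 1 of 114, at the interneuron progenitor gene Dbx1 (0.44). The retinoid list had 1 of 50, nearest the nuclear receptor corepressor gene Nrip1 (0.55), and the pluripotency and germline list 1 of 26, nearest Tbx3 (0.47). Neural crest genes had 1 of 43, Ets1 (0.41), mesoderm genes 1 of 25, Meox1 (0.45), and endothelium and blood genes 1 of 23, Ptprc (0.70). The temporal and gliogenic list had 2 of 85, Igf2bp1 (0.47) and Npas3 (0.42). Neural progenitor genes had 0 of 83, neuron genes 0 of 85 and endoderm genes 0 of 23. The order of the lists differed in edgeR's test. It called 6 of the 114 dorsoventral patterning intervals higher in Nr6a1OE, the most of any list. Of the 53 hedgehog intervals it called 2, of the 47 cell cycle intervals 0, and of the 27295 intervals near any gene 174. Boc, Ccnd2, Cdkn1c, Dusp6, Fgfr2, Hoxc8, Dbx1, Ets1, Meox1 and Npas3 stood outside the rule for named genes and were named after their values were seen.

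Most chosen intervals lay away from gene ends. Within 1 kb of the end of a protein-coding gene were 47 of the 404 (11.6%, exact 95% interval 8.67 to 15.2%), against 40.7% of intervals at the count minimum. A further 155 (38.4%) lay inside genes, against 30.9%, and 202 (50.0%) between genes, against 28.4%. With the groups exchanged, 13 of 669 intervals (1.94%) lay within 1 kb of a gene end. The median distance of the 404 to a gene end was 24.2 kb, and 10 lay over 500 kb away, the farthest being a Tenm2 interval at 1065 kb. Strength moved with position, and within ranges of strength the gene-end shares of the chosen intervals and of all intervals were close. Under 7.5 CPM, 8.47% of the chosen intervals and 10.2% of all lay within 1 kb of a gene end, from 7.5 to 15 CPM 14.1% and 15.2%, and from 15 to 30 CPM 35.0% and 38.3%. Intergenic shares were 51.2%, 47.4% and 50.0% of the chosen and 44.8%, 42.8% and 29.8% of all in the same ranges. The last of these rests on 20 chosen intervals.

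**Figure D3:**
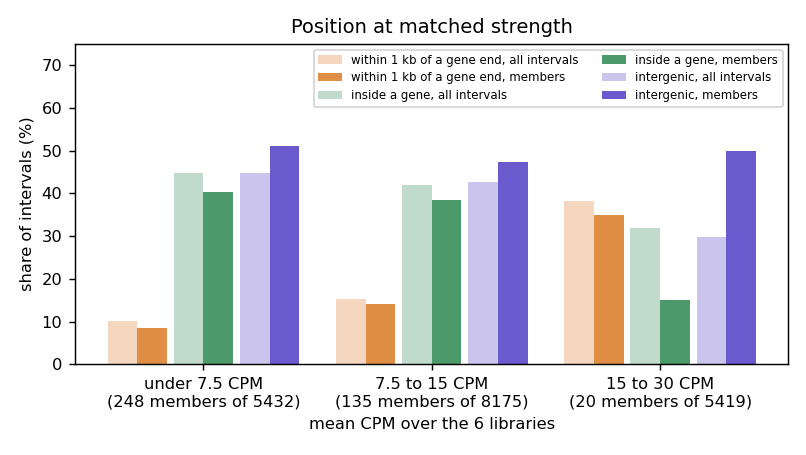
Percent of intervals within 1 kb of a gene end, inside a gene and between genes, for chosen intervals and for all intervals at the count minimum, in ranges of mean CPM over the 6 libraries. Within a range the gene-end shares of the 2 sets are close (8.47% and 10.2% under 7.5 CPM).

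Chromosome 11 held 65 of the 404 (16.1%, exact 95% interval 12.6 to 20.0%), against 8.78% of the intervals at the count minimum (8.46 to 9.10%) and 4.48% of the 669 intervals with the groups exchanged (3.05 to 6.34%). These intervals cover counting error only. Put differently, 2.45% of its 2658 intervals at the minimum met the criteria, against 1.23% of the 27630 elsewhere. Chromosomes 16, 13, 19 and 1 followed at 1.69%, 1.64%, 1.64% and 1.61%, and chromosome 14 was lowest at 0.58%. In the 3 ranges of strength up to 30 CPM, chromosome 11 held 15.3%, 17.8% and 15% of the chosen intervals. It held 8.56%, 8.69% and 7.90% of all in the same ranges. The 15% rests on 3 of 20 chosen intervals. Its chosen intervals had a median log2 ratio of 0.49 against 0.47 for the others, and 18 of 65 passed edgeR's test against 90 of 339. The criteria used the same libraries and largely set these values, so they cannot show whether the gains were alike. The highest ratios on chromosome 11 after Fam222b and Fam83g lay nearest Aspscr1 (0.74), Bcl11a (0.74) and Fstl4 (0.70).

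All of chromosome 11 was shifted a little in the same direction. Its share of the fragments was 9.07%, 9.04% and 9.08% in the mScarlet libraries, below the 9.37%, 9.42% and 9.40% of every Nr6a1OE library. The median log2 ratio of its 2658 intervals was 0.07, against 0.01 for those of other chromosomes, and was between 0.04 and 0.09 in every 10-Mb window. The share of chosen intervals varied among the windows without a single peak. It was 5.31% from 30 to 40 Mb (6 of 113), where the window's median log2 ratio was the lowest at 0.04, and 4.39% from 90 to 100 Mb (15 of 342, median 0.09), among them those at Itga3, Dlx3, Ngfr and Igf2bp1. From 120 to 130 Mb it was 4.30% and from 20 to 30 Mb 4.04%, and it was lowest from 110 to 120 Mb, at 1.19% (4 of 336). With each chromosome's median ratio removed, 358 intervals met the criteria, 356 of them among the 404, and 39 lay on chromosome 11 (10.9%). In edgeR, entering the chromosome medians as offsets lowered the number of intervals called higher in Nr6a1OE from 242 to 206. Off chromosomes X and Y the number went from 233 to 197, and on chromosome 11 from 45 to 14. Of the 404, 95 were called instead of 108. The part of a chromosome-wide difference in the single gains was not tested beyond these adjustments.

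**Figure D4:**
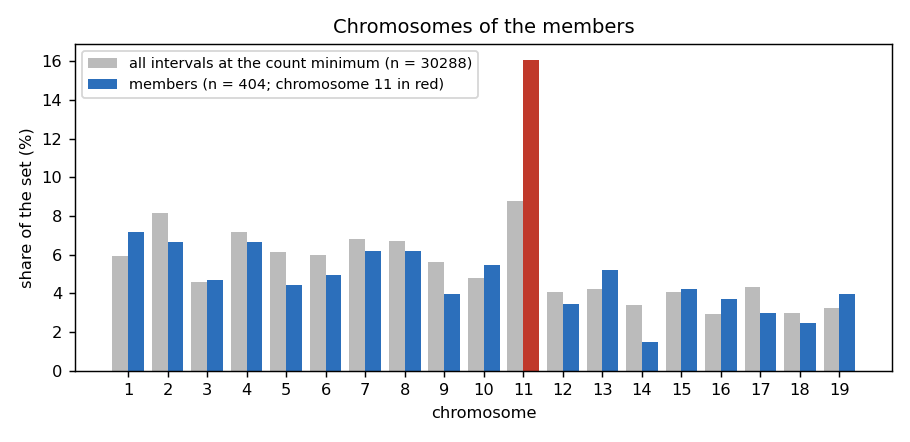
Share of the 404 chosen intervals (coloured bars) and of all 30288 intervals at the count minimum (grey bars) on each of chromosomes 1 to 19. Chromosome 11 is highest in both sets, with 16.1% of the chosen intervals and 8.78% of all.

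Choosing intervals with 2 libraries per group and reading them in the remaining pair (the mScarlet and Nr6a1OE libraries with the same number) gave values that did not enter the choice. Leaving out pair 1, 2 or 3, 845, 876 and 839 intervals were chosen, of which 314, 296 and 287 were among the 404. Their median log2 ratio was 0.49, 0.48 and 0.49 in the libraries that chose them, and 0.16, 0.13 and 0.12 in the pair left out. Over all intervals at the minimum the left-out pairs gave medians of 0.01, 0.00387 and 0.01. Of the chosen intervals 70.7%, 67.2% and 65.0% were above 0 in the left-out pair, against 51.2%, 50.9% and 51.7% of all, and 25.1%, 20.5% and 20.9% reached 0.4, against 5.61%, 5.15% and 4.58%. These shares are not matched for strength, and weak intervals vary more. Among intervals under 7.5 CPM in the choosing libraries, 23.7%, 21.9% and 21.1% of the chosen reached 0.4, against 14.9%, 13.9% and 12.9% of all, with medians of 0.13, 0.13 and 0.09 against 0.06, 0.04 and 0.02. From 7.5 to 15 CPM, 27.1%, 15.5% and 20.2% of the chosen reached it, against 8.62%, 7.70% and 7.17% of all, with medians of 0.22, 0.13 and 0.14 against 0.02, 0.01 and 0.01. In both ranges the chosen intervals were thus higher in the left-out pair than all intervals of the range, by less than in the libraries that chose them. All intervals of a range include the chosen ones. The ranges come from the libraries that made the choice, so the match in strength is not independent of it. These readings share libraries with each other and are given without a test. Chromosome 11 intervals chosen this way had left-out medians of 0.24, 0.23 and 0.21, where all of the chromosome gave 0.05, 0.07 and 0.06. Those on other chromosomes had 0.15, 0.12 and 0.12. Intervals with a mean Nr6a1OE count of at least 100 had 0.30, 0.16 and 0.22.

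**Figure D5:**
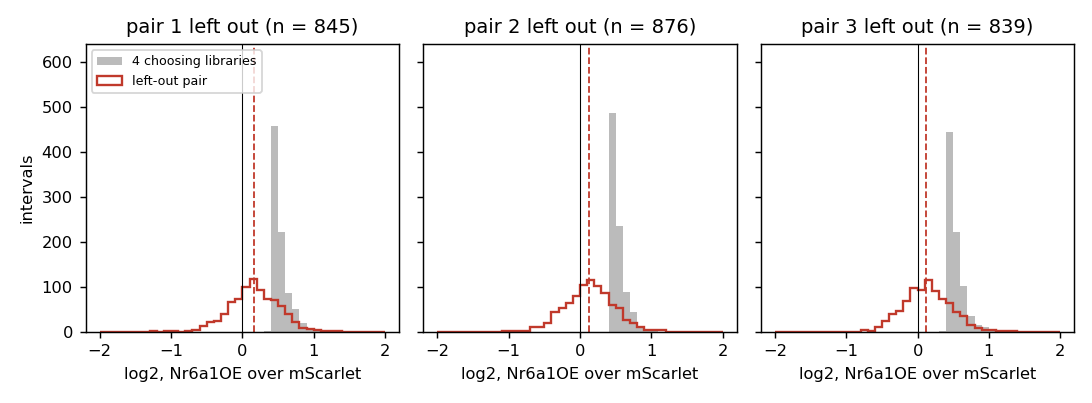
Number of intervals by log2 ratio of Nr6a1OE over mScarlet, for intervals chosen without pair 1, 2 or 3: filled bars show the ratio in the 4 libraries that chose them and the outline the ratio in the pair left out, with its median dashed. The outline is centred at 0.16, 0.13 and 0.12, above 0 and below the choosing libraries.

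Intervals next to a chosen one moved little. The 1129 other intervals lying 1 to 50 kb from one of the 404 had a median log2 ratio of 0.04, against 0.01 over all the others at the count minimum, and 0.03 against 0.00366 off chromosome 11. Among the 404, 11 pairs lay within 50 kb of each other.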

How the data were processed

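ATAC-seq was done on 3 mScarlet and 3 Nr6a1OE libraries. The authors deposited raw fragment counts for 52223 consensus intervals. Per the file headers, featureCounts 2.0.1 counted read pairs in every interval they overlapped by at least 0.2 of the fragment, so neighbouring intervals can share fragments. The submitters' processing notes name mm10. For the aligner, duplicates, Tn5 shift and peak caller, nothing is given in the sources used here.

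Counts were divided by the column sum to give CPM. The criteria were applied in Python 3.11.15 (pandas 2.3.3), and exact (Clopper-Pearson) 95% intervals came from scipy 1.17.1. Whole-table tests used edgeR 4.0.16 (TMM, filterByExpr, quasi-likelihood, 51637 intervals) and, as an alternative, DESeq2 1.42.0, in R 4.3.3, at a Benjamini-Hochberg adjusted p of 0.05. They were tested on simulated data. Positions are from a RefSeq table of GRCm38.p6 (the coordinates of mm10) with 21900 protein-coding genes, by nearest gene start or finish, and exons and introns were not distinguished. The 14 gene lists hold 259 genes, all found in it, and take intervals within 100 kb. Sequences of the other chosen intervals were not used here.

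The chosen intervals, gene lists and rules were set with earlier results of these data known. Named were the 10 highest ratios at a mean count of at least 100, the 5 strongest in mScarlet, the 5 highest ratios within 1 kb of a gene end, the 12 highest nearest a listed gene, 3 on each side of the log2 threshold and the 5 highest on chromosome 11. Gene names elsewhere were chosen after their values were seen. Replicates of the same group showed slightly more than counting noise at a mean count of 10 or more (chi-square per degree of freedom up to 1.10). At 100 or more it reached 1.17 (mScarlet 2 and 3), and pairs of libraries from different groups gave 1.21 to 1.54. Nr6a1OE 1 and 3 showed no excess there (0.999, chi-square test over intervals, p = 0.549), so an alternative counted them as 1 sample. Other alternatives changed the scaling, count minimum, log2 threshold, filter and libraries.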

Additional observations from a re-analysis of the deposited data

How the results depend on the processing

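The number of chosen intervals followed the thresholds. It was 1135 at a count minimum of 20, 87 at 80, 899 at a log2 threshold of 0.3 and 167 at 0.5. Other scalings gave 386 (TMM), 389 (DESeq2 size factors) and 358 (chromosome medians removed), and Nr6a1OE 1 and 3 counted as 1 sample gave 522. Leaving out 1 library gave 560 to 714 and leaving out a pair 839 to 876, as fewer libraries have to be ordered. Of the 404, 140 met the criteria in every set without 1 library. The chromosome 11 share was 10.9% with chromosome medians removed, 11.7% at a minimum of 20 and 11.2 to 15.1% over all sets with libraries left out, lowest without pair 3. The gene-end share was 19.5% at a minimum of 80, 15.4% at a log2 threshold of 0.3 and 11.3 to 15.1% with libraries left out. The left-out pair's mean median of 0.138 (SD 0.0214, n = 3) became 0.192 at a minimum of 80. edgeR's 242 higher intervals became 4 with DESeq2 and 98 to 190 with libraries left out, and the 108 among the chosen became 4 and 44 to 73. With Nr6a1OE 1 and 3 as 1 sample they were 224 and 103. The cause was not tested. Libraries with the same number deviated together no more than others (correlations 0.032, -0.0249 and -0.0292 over 18021 intervals). Unlike numbers gave -0.0507 to 0.0744. Whether equal numbers mark a shared batch is not stated in the labels, and correlations this small cannot decide it. With a replicate block, edgeR called 224 higher, 100 of them among the chosen. The hedgehog count of 5 was 3 without mScarlet 1, an alternative added after seeing the data. The median count behind a chosen interval was 55 fragments, a value the count minimum largely sets, and the effect of depth was not tested.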

Other observations

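Chromosomes X and Y lay outside the criteria. On them 7 intervals met the other 3 conditions, 5 of 669 at the count minimum on X, nearest Efhc2, Efnb1 (2 intervals), Nxf7 and Asmt, and 2 of 11 on Y, nearest Gm52481. Efnb1 encodes an ephrin ligand. These genes were named after their values were seen, and no comparison uses them.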
